A study of Mus musculus with 6 samples.

Results

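The acyl-CoA thioesterase genes *Acot1*, *Acot2*, *Acot3*, *Acot4*, *Acot7*, *Acot8*, *Acot9*, *Acot11*, *Acot12* and *Acot13* were examined in the liver of mice on a high-fat diet (HFD). They were found by symbol, as 10 of the 21528 genes that the tables of 6 liver libraries list. The 10 genes were chosen from results on these same libraries, in which their levels in the 2 genotypes were known. The differences between genotypes below are therefore a description, and where a fit to all genes calls a member lower, that is no independent support. In 10 of 10 genes the mean of the TRIM24C52/55A livers was below that of the WT livers. The distance was widest for *Acot3*, whose mean was 84.8% lower, followed by *Acot2* and *Acot4*, whose means were 63.0% and 59.7% lower. It was narrowest for *Acot7* and *Acot12*, with means 15.8% and 16.2% lower.

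RNA-Seq was performed on the liver of 3 WT and 3 TRIM24C52/55A mice, with 1 library per mouse. All 6 mice were of the C57BL/6 strain, 5 months old, and had eaten a diet with 60% fat for 3 months. TRIM24C52/55A mice carry a knockin in which cysteines 52 and 55 of the endogenous TRIM24, in the RING domain that gives this protein its E3-ligase activity, are replaced by alanine. The knockin is present in the whole body and is not limited to hepatocytes, and the study bred homozygous knockin mice and WT littermates from heterozygous parents. No group on another diet is part of these libraries, so every value below was measured under the HFD.

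Acyl-CoA thioesterases split the bond between a fatty acid and coenzyme A, which returns free fatty acid and free coenzyme A. They thereby act against acyl-CoA synthetases, which make that bond, and they set how much activated fatty acid is at hand for oxidation, for lipid synthesis and as a ligand of nuclear receptors. Mice have a family of type I enzymes, encoded side by side on chromosome 12, of which ACOT1 is cytosolic, ACOT2 mitochondrial and ACOT3 to ACOT6 peroxisomal. The type II enzymes, with a hotdog fold, are unrelated in sequence and include ACOT7 to ACOT13. In liver, fasting and ligands of PPARα, a nuclear receptor for fatty acids, are known to induce several of the type I genes.

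Values are FPKM, the fragments of a gene relative to transcript length and to all mapped fragments of the library, as the authors deposited them. The total FPKM of a library was 644619 to 648221 in WT and 673244 to 676791 in TRIM24C52/55A livers, a sum that says nothing of read depth. The FPKM worth of 1 fragment, read from the spacing of low values, was 0.969 to 1.04 times that of WT replicate 1. It was searched only in a narrow range around 1, so it does not show that the libraries were of the same depth. *Trim24* itself was measured at 5.54, 4.85 and 5.96 FPKM in WT and 6.15, 4.31 and 8.46 FPKM in TRIM24C52/55A livers, and because the knockin exchanges codons, this level does not check the labels. Hepatocyte markers fitted the tissue label, with *Apoa1* at 5556 to 8183 FPKM and *Ttr* at 4482 to 5844 FPKM. The summed markers of 4 other liver cell types, though not each marker, were lower in TRIM24C52/55A replicates 1 and 3 than in every WT liver. Summed macrophage markers were 124.6 and 125.2 FPKM there, against 146.8 to 188.0 in WT. The sums were 76.45 and 76.39 against 83.9 to 92.3 FPKM for endothelial cells, 28.4 and 30.3 against 33.1 to 38.2 FPKM for stellate cells, and 23.3 and 21.8 against 28.5 to 53.8 FPKM for cholangiocytes. Only TRIM24C52/55A replicate 2 was inside or above these WT ranges, at 166.9, 85.2, 39.1 and 33.9 FPKM in the same order. Of the single markers, both replicates 1 and 3 were below every WT liver for 6 of 7 of macrophages, 3 of 6 of endothelial cells, 3 of 6 of stellate cells and 4 of 5 of cholangiocytes, while the stellate markers *Lrat* and *Reln* were above every WT liver in both. Markers of skeletal muscle summed to at most 0.605 FPKM. TRIM24C52/55A replicate 2 stood apart in adipocyte markers. For 5 of 13 such markers TRIM24C52/55A replicates 1 and 3 were both below every WT liver, and for 1 both were above. Of the 13 markers, 10 were highest in TRIM24C52/55A replicate 2. Their sum without *Car3* and *Pck1*, which hepatocytes also express, was 85.6 FPKM there and 16.7 to 32.3 FPKM in the other 5 libraries. *Lep* and *Retn* had 3.98 and 1.59 FPKM in it and were at 0 or not listed in the other 5. The part of these other cell types in the values of the thioesterases was not tested, and the log2 fold change of each thioesterase is also given below without this library.

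Fold changes are differences of log2(FPKM + 1) between genotypes, TRIM24C52/55A minus WT, with the standard error (SE) of a limma fit to the 12225 genes whose mean FPKM reached 0.5. A gene is called lower or higher where its Benjamini-Hochberg adjusted p-value in that fit, over all genes tested, is under 0.05. On this scale the change of a gene with low FPKM is understated. Of all genes tested, 944 were called, 744 lower and 200 higher in the TRIM24C52/55A liver. That balance depended on how libraries were scaled, with 411 lower and 249 higher after median-of-ratios scaling and 1358 lower and 197 higher with TPM (FPKM rescaled to 1 total). The error in every test rests on the spread among 3 mice within each genotype, pooled and drawn by limma towards that of other genes. In pieces of whole liver, fewer cells of a type and less RNA per cell cannot be told apart.

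All 10 thioesterases passed the filter on low values, and each had a mean above 0.5 FPKM in both genotypes. Their log2 fold changes lay between -2.21 and -0.23, all below 0 also under TPM, median-of-ratios and quantile scaling, and 65.5% of all genes tested were below 0. The median of the 10 was -0.57, against -0.075 over all genes tested. Called lower were 6 members, *Acot2*, *Acot3*, *Acot4*, *Acot8*, *Acot11* and *Acot13*, where 6.09% of all genes tested were called lower. None was higher, where 1.64% of all genes were called higher. In 7 members every TRIM24C52/55A library was below every WT library, which held for 22.5% of all genes tested in that direction. The genes were chosen for this pattern, so nothing is read from these counts. The count of 6 fell to 3 without WT replicate 1, to 2 without WT replicate 3 and to 3 without TRIM24C52/55A replicate 1. In these fits 1.78%, 1.74% and 1.65% of all genes tested were called lower, in that order. With no filter on low values the count was 2, where 1.17% of all genes were called lower. It remained 6 without TRIM24C52/55A replicate 2, where 8.45% were.

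**Figure D1:**
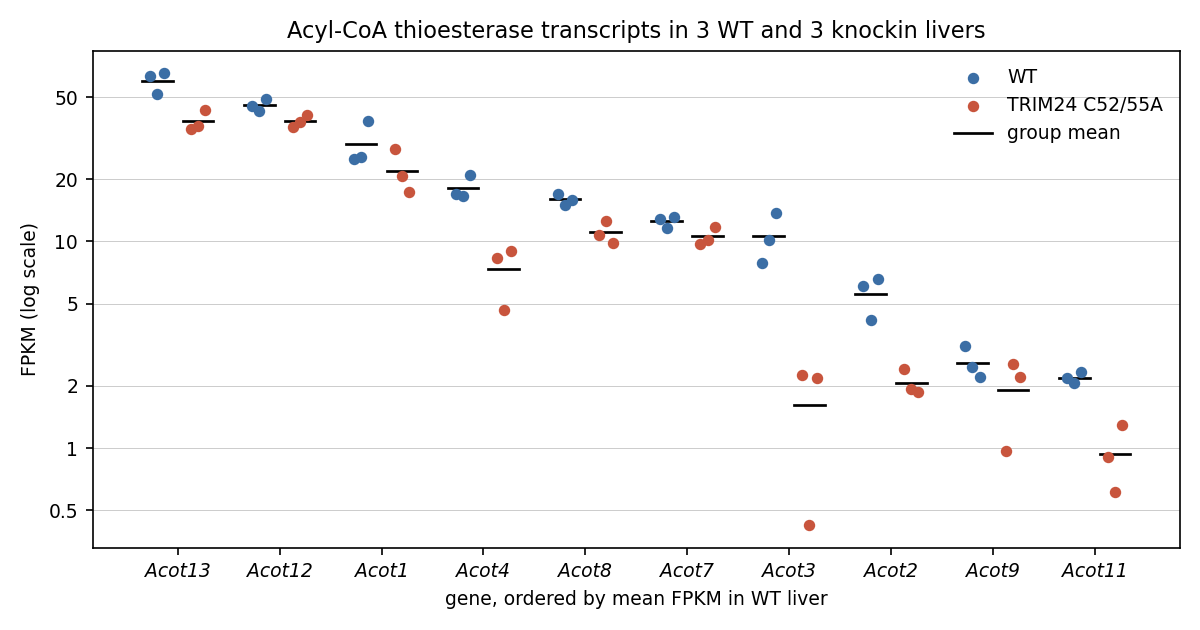
FPKM of the 10 acyl-CoA thioesterase genes (log axis) in 3 WT livers (blue) and 3 TRIM24C52/55A livers (red), 1 point per library, with a black line at the mean of each group and genes in the order of their WT mean. The groups are fully apart for *Acot2*, *Acot3*, *Acot4*, *Acot8*, *Acot11*, *Acot12* and *Acot13* and overlap for *Acot1*, *Acot7* and *Acot9*, and the lowest point of all is *Acot3* in TRIM24C52/55A replicate 2, at 0.424 FPKM.

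The type I genes lie together on the + strand of chromosome 12 (GRCm38, GENCODE M21), where *Acot1* to *Acot6* fill 123.5 kb from 83987861 to 84111349. In order along the chromosome, *Acot2* runs from 83987861 to 83993873, *Acot1* from 84009490 to 84018371, *Acot4* from 84038379 to 84048601 and *Acot3* from 84052144 to 84060402. The deposited tables give *Acot3* and *Acot4* 1 and the same interval, from 84038379 to 84059565, although the annotation keeps them apart. These genes are close copies. Over the aligned coding bases, *Acot1* and *Acot2* were 95.2% identical, with an unbroken identical run of 273 bases, while *Acot3* was 83.9% and *Acot4* 76.6% identical to *Acot1*. The last coding bases, to the stop codon, are printed because they show how *Acot2* goes from near identity with *Acot1* to a different end. *Acot3* and *Acot4* differ from *Acot1* at more places already in the first bases shown. Capitals mark bases that differ from *Acot1* at the same place. Over the first 30 bases shown *Acot2* has 1 such base, *Acot3* 6 and *Acot4* 11.
Acot1: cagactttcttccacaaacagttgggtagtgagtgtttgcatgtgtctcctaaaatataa
Acot2: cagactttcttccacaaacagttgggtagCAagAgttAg
Acot3: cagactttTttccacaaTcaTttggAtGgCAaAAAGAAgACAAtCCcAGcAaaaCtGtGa
Acot4: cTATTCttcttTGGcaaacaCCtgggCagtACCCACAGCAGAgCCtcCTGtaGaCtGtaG

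Taken over the whole transcript, 32.1% of the 50-base windows of *Acot1* (transcript Acot1-201) occur without a mismatch in another *Acot* transcript, 23.7% in *Acot2*. The shares were 27.6% for *Acot2*, 7.69% for *Acot3* and 4.49% for *Acot4*. Of the type II members, *Acot9* shared 20.2% of its windows, all of them with *Acot10*, and *Acot7*, *Acot8*, *Acot11*, *Acot12* and *Acot13* shared 0. How fragments of shared sequence were divided is not given in the sources used here. The levels of *Acot1*, *Acot2* and *Acot9* are therefore uncertain to that extent, and sums over close copies are given as well. Since FPKM are divided by transcript length (2272 bases for *Acot1*, 2196 for *Acot2*, 3431 for *Acot3* and 6203 for *Acot4*), a sum depends little on the division of fragments between *Acot1* and *Acot2* but more on that between *Acot3* and *Acot4*.

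*Acot3* encodes a peroxisomal thioesterase of medium- to long-chain acyl-CoA. The WT libraries, in the order of their replicate numbers, held 7.89, 10.2 and 13.7 FPKM, and the TRIM24C52/55A libraries 2.25, 0.424 and 2.18 FPKM. Every TRIM24C52/55A liver was far below the lowest WT liver, and replicate 2, the library with the adipocyte markers, was the lowest. The means were 10.6 ± 2.93 and 1.62 ± 1.04 FPKM (SD, n = 3 each), and the log2 fold change was -2.21 (SE 0.32). Without TRIM24C52/55A replicate 2 it was -1.82.

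*Acot4*, its neighbour, encodes the peroxisomal enzyme that in mice acts on succinyl-CoA. In WT livers it had 17.0, 16.6 and 21.01 FPKM, and in TRIM24C52/55A livers 8.36, 4.68 and 8.97 FPKM. Again the groups were apart and TRIM24C52/55A replicate 2 was the lowest library. The mean was 59.7% lower, 18.2 ± 2.42 against 7.34 ± 2.32 FPKM (SD, n = 3 each), with a log2 fold change of -1.24 (SE 0.21), or -0.99 without TRIM24C52/55A replicate 2. The summed FPKM of *Acot3* and *Acot4* was 24.9, 26.9 and 34.7 in WT and 10.6, 5.10 and 11.2 in TRIM24C52/55A livers, 68.9% lower in the mean. *Acot4* was the more abundant of the pair in every library, by 1.53 to 2.16 times in WT and by 3.71, 11.0 and 4.12 times in TRIM24C52/55A livers.

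*Acot2* encodes the mitochondrial matrix enzyme, which releases long-chain fatty acids beside the β-oxidation pathway. Its levels were 6.08, 4.15 and 6.56 FPKM in WT livers and 2.40, 1.93 and 1.87 FPKM in TRIM24C52/55A livers. The TRIM24C52/55A libraries lay close together, with an SD of 0.291 FPKM against 1.28 FPKM in WT, and all below the lowest WT library. The mean was 63.0% lower and the log2 fold change -1.09 (SE 0.16), which was -1.06 without TRIM24C52/55A replicate 2.

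*Acot1*, the cytosolic enzyme and the near-identical copy of *Acot2*, differed less. It had 25.2, 25.7 and 38.3 FPKM in WT and 28.0, 20.6 and 17.3 FPKM in TRIM24C52/55A livers. The groups overlapped, since TRIM24C52/55A replicate 1 was above WT replicates 1 and 2. The means of 29.7 ± 7.44 and 22.0 ± 5.46 FPKM (SD, n = 3 each) were 26.1% apart, the log2 fold change was -0.42 (SE 0.20), and the gene was not called. Single libraries moved this value, which was -0.23 without WT replicate 3, -0.27 without TRIM24C52/55A replicate 3, -0.60 without TRIM24C52/55A replicate 1 and -0.39 without TRIM24C52/55A replicate 2. A missed threshold does not show that the levels were alike. *Acot1* had 4.14, 6.19 and 5.84 times the FPKM of *Acot2* in WT livers and 11.6, 10.7 and 9.23 times in TRIM24C52/55A livers, so the ratio within a library was higher in each TRIM24C52/55A liver than in any WT liver. Their sum was 31.2, 29.9 and 44.9 FPKM in WT and 30.4, 22.6 and 19.2 FPKM in TRIM24C52/55A livers, and its groups overlapped.

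Together, *Acot1* to *Acot4* had 56.2, 56.7 and 79.6 FPKM in WT livers and 41.0, 27.7 and 30.3 FPKM in TRIM24C52/55A livers, a ratio of means of 0.514 (0.556 without TRIM24C52/55A replicate 2). The groups did not overlap. *Acot1* made up 44.8%, 45.3% and 48.1% of this sum in WT livers and 68.2%, 74.6% and 57.1% in TRIM24C52/55A livers. Without *Acot1* the sum was 31.0, 31.0 and 41.3 FPKM in WT and 13.0, 7.03 and 13.0 FPKM in TRIM24C52/55A livers, 68.0% lower in the mean. The last members of the cluster, *Acot5* and *Acot6*, both peroxisomal, were hardly detected and are not among the 10 genes. *Acot5* had 0.104 to 0.156 FPKM in WT and 0.0122 to 0.147 FPKM in TRIM24C52/55A livers, with overlap, and *Acot6* had 0.221 to 0.515 and 0.117 to 0.218 FPKM, without overlap. Neither reached the minimum for testing.

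**Figure D2:**
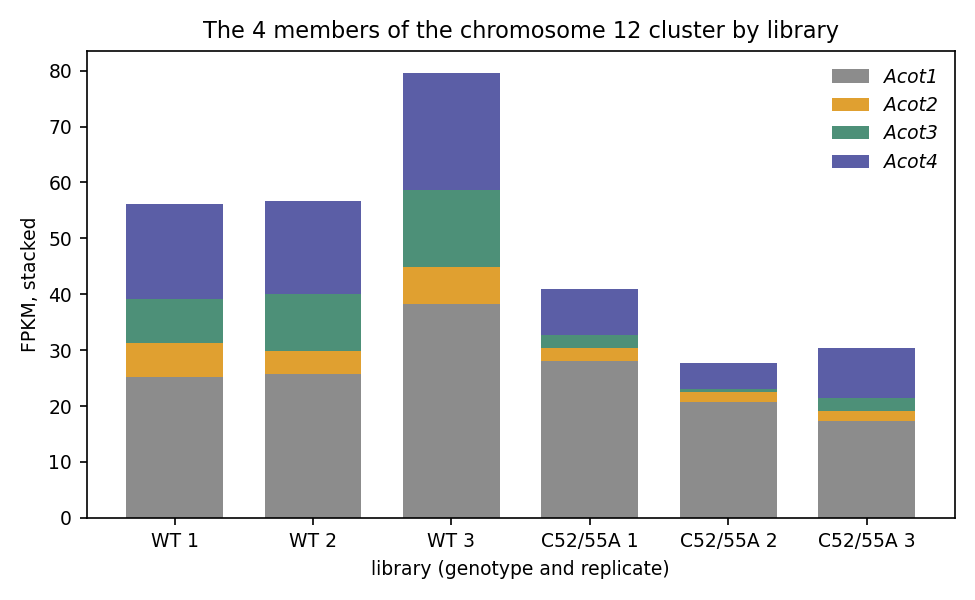
Stacked FPKM of *Acot1* (grey), *Acot2* (orange), *Acot3* (green) and *Acot4* (purple) in each of the 6 livers, 1 bar per library. The whole bars run from 56.2 to 79.6 FPKM in WT and from 27.7 to 41.0 FPKM in TRIM24C52/55A livers, and the grey *Acot1* part is 44.8% to 48.1% of the bar in WT and 57.1% to 74.6% in TRIM24C52/55A livers.

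Among the type II genes, *Acot8* on chromosome 2 (- strand, 164792765 to 164804882) encodes the peroxisomal enzyme of broadest substrate range. It had 17.0, 15.1 and 15.9 FPKM in WT and 10.7, 12.6 and 9.87 FPKM in TRIM24C52/55A livers. The groups were apart, and here TRIM24C52/55A replicate 2 was the highest of its group, unlike in *Acot3* and *Acot4*. The mean was 30.8% lower, with a log2 fold change of -0.50 (SE 0.10) and of -0.59 without TRIM24C52/55A replicate 2. It was called in 6 of 14 alternative settings, the fewest among the 6 members called.

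*Acot13* lies on chromosome 13 (- strand, 24817948 to 24831540) and encodes a small thioesterase, also known as THEM2, found at mitochondria, which acts on long-chain acyl-CoA. It was the most abundant member in WT liver, at 63.4, 51.6 and 65.1 FPKM, and had 35.1, 36.2 and 43.2 FPKM in TRIM24C52/55A livers. The groups did not overlap. Means of 60.0 ± 7.35 and 38.2 ± 4.39 FPKM (SD, n = 3 each) gave a log2 fold change of -0.64 (SE 0.12), and -0.60 without TRIM24C52/55A replicate 2.

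*Acot12*, on the + strand of the same chromosome from 91741512 to 91786148, encodes a cytosolic enzyme of liver that splits acetyl-CoA. It had 45.0, 42.9 and 48.9 FPKM in WT and 35.8, 37.8 and 41.1 FPKM in TRIM24C52/55A livers. The highest TRIM24C52/55A liver was just below the lowest WT liver, and the gene was not called (log2 fold change -0.25, SE 0.09). With the libraries scaled by median of ratios the fold change was -0.15, after quantile normalization -0.09, and without TRIM24C52/55A replicate 2 -0.24. The tables give *Acot12* an interval of 325.9 kb that it shares with *Ssbp2*, against 44.6 kb in the annotation. *Ssbp2* was listed at 0.480 to 1.16 FPKM. Whether fragments were counted over the listed intervals or over transcripts is not given in the sources used here. The levels of *Acot12*, and of *Acot3* and *Acot4* with their shared interval, carry that uncertainty. So do those of *Acot8* and *Acot11*, listed over 19.1 and 71.1 kb against 12.1 and 60.4 kb in the annotation.

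The ratio of *Acot13* to *Acot12* within a library was 1.41, 1.20 and 1.33 in WT and 0.982, 0.958 and 1.05 in TRIM24C52/55A livers. Each TRIM24C52/55A liver thus had about as much *Acot12* as *Acot13*, while each WT liver had more *Acot13*.

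*Acot11* (chromosome 4, - strand, 106744555 to 106804998) encodes a thioesterase with a lipid-binding START domain, also known as THEM1, which is best known from brown fat. Its mean was the lowest of the members in both genotypes, though not its value in every library. It had 2.18, 2.06 and 2.33 FPKM in WT and 0.901, 0.613 and 1.29 FPKM in TRIM24C52/55A livers. The WT values lay within an SD of 0.137 FPKM and none came near the TRIM24C52/55A values. The mean was 57.4% lower, and the log2 fold change was -0.74 (SE 0.14), -0.61 without TRIM24C52/55A replicate 2 and -1.20 with a pseudocount of 0.1 in place of 1.

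*Acot7* (chromosome 4, + strand, 152178134 to 152271855), a cytosolic enzyme most abundant in brain, had 12.9, 11.6 and 13.2 FPKM in WT and 9.73, 10.2 and 11.8 FPKM in TRIM24C52/55A livers. TRIM24C52/55A replicate 3 was above WT replicate 2, the log2 fold change was -0.23 (SE 0.10), and the gene was not called. That value was -0.14 with median-of-ratios or quantile scaling and -0.21 without TRIM24C52/55A replicate 2. *Acot9* (chromosome X, + strand, 155262443 to 155297654), a mitochondrial enzyme, had 3.10, 2.48 and 2.20 FPKM in WT and 0.969, 2.55 and 2.20 FPKM in TRIM24C52/55A livers. TRIM24C52/55A replicate 1 was well below the WT range while the other two were inside it or at its lower edge, and the log2 fold change of -0.34 (SE 0.22) was -0.09 without that library and -0.51 without TRIM24C52/55A replicate 2.

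**Figure D3:**
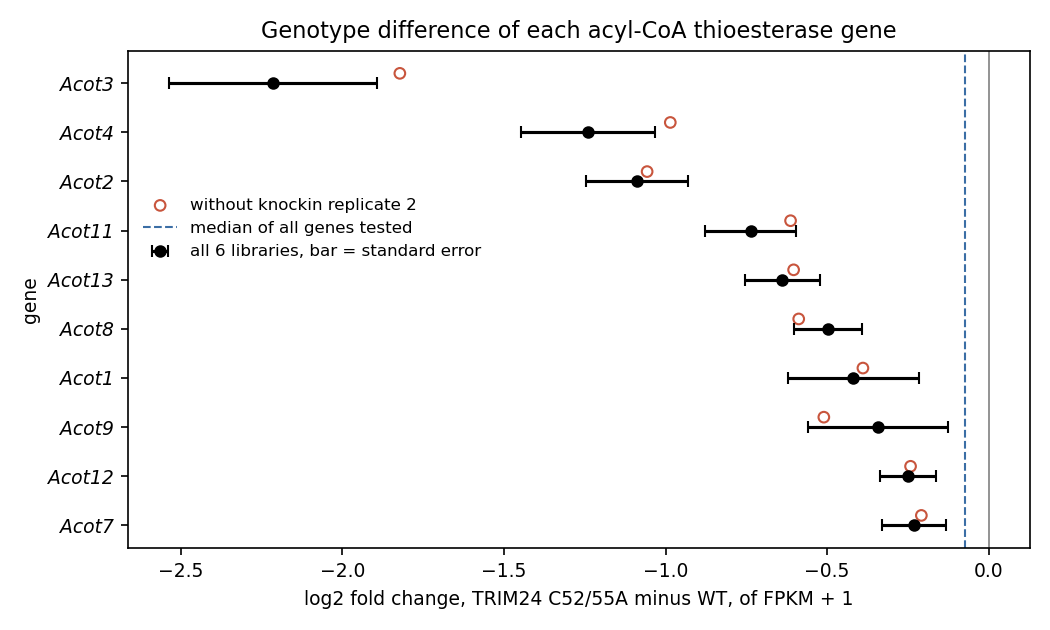
Log2 fold change (TRIM24C52/55A minus WT, of FPKM + 1) of each acyl-CoA thioesterase gene from the limma fit to 6 libraries (black points, bars are the standard error) and without TRIM24C52/55A replicate 2 (open red circles), with a dashed line at the median of all genes tested, -0.075. All 20 estimates lie below 0 and below the dashed line, from -2.21 for *Acot3* to -0.23 for *Acot7* in the fit to 6 libraries.

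By summed FPKM, the 10 genes had 199.8, 182.5 and 227.2 in WT livers and 134.2, 127.7 and 139.8 in TRIM24C52/55A livers, 34.1% lower in the mean. *Acot12* and *Acot13* contributed most to both. Their part of the summed FPKM was 22.5% and 29.6% in WT, and 28.6% and 28.5% in TRIM24C52/55A livers (means of 3 libraries). *Acot3* went from a mean of 5.20% of the sum in WT to 1.19% in TRIM24C52/55A livers, and *Acot4* from 8.96% to 5.44%, whereas *Acot1* had 14.5% and 16.5%.

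In WT liver the order of mean FPKM was *Acot13*, *Acot12*, *Acot1*, *Acot4*, *Acot8*, *Acot7*, *Acot3*, *Acot2*, *Acot9* and *Acot11*. The ranges of 3 libraries overlapped between *Acot4* and *Acot8*, between *Acot7* and *Acot3* and between *Acot9* and *Acot11*, so these neighbours are not ordered beyond their spread. In TRIM24C52/55A liver the order was *Acot12*, *Acot13*, *Acot1*, *Acot8*, *Acot7*, *Acot4*, *Acot2*, *Acot9*, *Acot3* and *Acot11*, with overlap between *Acot12* and *Acot13*, between *Acot8* and *Acot7*, and between each neighbour from *Acot2* down to *Acot11*. *Acot4* was thus above *Acot8* in 3 of 3 WT livers and below the ranges of both *Acot8* and *Acot7* in TRIM24C52/55A livers.

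The deviations of the members from the mean of their genotype were compared from library to library. Over 6 libraries, the Pearson correlation of these deviations in log2(FPKM + 1) had a median of 0.276 over 45 pairs, of which 30 were above 0. It was highest for *Acot7* with *Acot13* (0.961) and *Acot3* with *Acot4* (0.959), the latter being the genes that share 1 interval in the tables. The lowest values were those of *Acot8* with *Acot3* (-0.85) and with *Acot4* (-0.81). The 6 libraries share the scaling to their own totals, and correlations over so few libraries are a description only.

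Of the genes outside the family, *Acad11*, an acyl-CoA dehydrogenase, had the pattern over the 6 libraries that was most like *Acot2* (Pearson r of log2(FPKM + 1) 0.999, n = 6), followed by *Sept1* (0.998) and *Rin3* (0.995). For *Acot3* they were *Ghitm* (0.995), *Suv39h1* (0.994) and *Scfd2* (0.994). *Acot4* was closest to *Scfd2* (0.996), *Gk* (0.996), which encodes glycerol kinase, and *Plekha8* (0.995), and *Acot1* to *Alg13* (0.993), *Sec62* (0.992) and *Rpain* (0.991). The points fall into 2 genotypes, and the genes named are the highest found in a search of the 12225 genes tested. The gene ranked 50th was still at 0.975 for *Acot3* and at 0.929 for *Acot1*.

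The 250 bases before and 50 after each annotated start of a gene were read from RefSeq (GRCm38.p6) for 9 of the 10 members. They were searched on both strands for the element AGGTCANAGGTCA, the consensus bound by PPAR together with RXR. The whole element was in 0 windows of the members and in 0.0396% of 32851 windows of all genes. By the best match to its 12 fixed letters, *Acot12* had 11 (0.554% of all windows have at least as many), with tgacctctcacct on the opposite strand 110 bases before the start. *Acot4* had 10 (3.86% of windows), *Acot2*, *Acot3* and *Acot11* had 9 (24.6%), *Acot1*, *Acot7* and *Acot9* had 8 (79.8%), and *Acot8* had 7 (99.9%). *Acot3* and *Acot11* have more than 1 annotated start. Each window of *Acot3* had 9, while for *Acot11* the window of the other start had 8. The half-site AGGTCA was found once each in *Acot3*, *Acot4* and *Acot12* and lies in 16.3% of all windows. These matches are letters and not sites of binding.

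The windows of the neighbouring type I genes are printed so that they can be compared. Their longest identical run between any pair was 7 to 10 bases, although their coding parts are 75.2% to 95.2% identical. All are on the + strand of GRCm38.p6 (RefSeq), and capitals mark the best match to the element, which in *Acot1* is 1 of 3 and in *Acot2* 1 of 2 stretches that match equally well. The first is of *Acot2*, chr12:83987611-83987910, then *Acot1*, chr12:84009252-84009551, *Acot4*, chr12:84038129-84038428, and *Acot3*, chr12:84051894-84052193.
Acot2: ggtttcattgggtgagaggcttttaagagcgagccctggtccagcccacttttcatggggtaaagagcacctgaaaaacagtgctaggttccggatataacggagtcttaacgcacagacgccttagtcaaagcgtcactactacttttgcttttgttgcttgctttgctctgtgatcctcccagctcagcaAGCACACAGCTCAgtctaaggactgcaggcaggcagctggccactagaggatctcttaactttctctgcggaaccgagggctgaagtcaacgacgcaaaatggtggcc
Acot1: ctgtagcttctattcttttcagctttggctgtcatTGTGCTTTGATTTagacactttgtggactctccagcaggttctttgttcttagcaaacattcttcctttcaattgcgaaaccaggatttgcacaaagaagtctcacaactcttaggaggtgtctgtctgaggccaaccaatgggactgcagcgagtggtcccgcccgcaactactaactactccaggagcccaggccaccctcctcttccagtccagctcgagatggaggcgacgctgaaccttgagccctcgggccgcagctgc
Acot4: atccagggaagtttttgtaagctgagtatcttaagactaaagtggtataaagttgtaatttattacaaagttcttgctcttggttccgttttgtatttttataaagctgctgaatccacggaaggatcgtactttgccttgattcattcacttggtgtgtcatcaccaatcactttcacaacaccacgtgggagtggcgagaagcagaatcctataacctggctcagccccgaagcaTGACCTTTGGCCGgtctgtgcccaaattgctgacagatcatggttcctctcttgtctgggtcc
Acot3: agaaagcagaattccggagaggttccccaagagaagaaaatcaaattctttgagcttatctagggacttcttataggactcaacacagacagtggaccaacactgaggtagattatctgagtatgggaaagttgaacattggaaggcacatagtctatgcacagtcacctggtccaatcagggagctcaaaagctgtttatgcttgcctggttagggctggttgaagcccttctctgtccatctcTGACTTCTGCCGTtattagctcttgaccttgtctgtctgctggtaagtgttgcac

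Other genes of acyl-CoA metabolism were examined as lists, written from general knowledge but with earlier results of these libraries known, so that they are not independent of the data. Their counts stand beside the 6.09% of all genes tested that were called lower and the median of -0.075, and no list was tested as a set. Without TRIM24C52/55A replicate 2 the numbers called lower, in the order of the lists below, were 3, 1, 3, 8, 5, 4, 9 and 1, against 4, 1, 2, 8, 7, 6, 9 and 1 with it, and 8.45% of all genes tested were called lower. Other libraries moved the counts further. In the same order they were 1, 1, 0, 3, 3, 2, 7 and 1 without TRIM24C52/55A replicate 1 (1.65% of all genes), 1, 0, 0, 3, 3, 2, 8 and 1 without WT replicate 1 (1.78%), 1, 0, 0, 4, 4, 3, 7 and 1 without WT replicate 3 (1.74%), 1, 1, 1, 6, 6, 4, 10 and 1 without WT replicate 2 (2.85%) and 2, 1, 1, 7, 4, 5, 8 and 1 without TRIM24C52/55A replicate 3 (4.88%). Acyl-CoA synthetases, the enzymes that oppose thioesterases, had 4 of 16 tested genes called lower and a median log2 fold change of -0.14. *Acss3* fell from 3.92 ± 0.654 to 1.08 ± 0.558 FPKM (SD, n = 3 each), with a log2 fold change of -1.26 (SE 0.19, adjusted p = 0.00911 from limma), and *Acsl5*, a long-chain synthetase, from 132.9 ± 17.0 to 95.3 ± 10.9 FPKM (adjusted p = 0.0480 from limma). The other 2 were *Acsm3* and *Slc27a4*, with log2 fold changes of -0.38 and -0.37. With median-of-ratios or quantile scaling the count of synthetases called lower was 1, where 3.36% and 3.09% of all genes tested were called lower.

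Beside the thioesterases, 8 other enzymes that hydrolyse acyl-CoA or coenzyme A were tested, and 1 was called in each direction. *Acnat2*, which encodes an acyltransferase of the same protein family as the type I enzymes, fell from 53.6 ± 4.95 to 25.6 ± 6.62 FPKM (SD, n = 3 each, log2 fold change -1.06, SE 0.18, adjusted p = 0.0130 from limma). *Nudt7*, which encodes a peroxisomal hydrolase of coenzyme A and acyl-CoA, went the other way. It had 88.0, 133.6 and 97.2 FPKM in WT and 265.1, 190.0 and 283.7 FPKM in TRIM24C52/55A livers, all above the WT range. Its log2 fold change was 1.21 (SE 0.19, adjusted p = 0.0101 from limma). The call of *Nudt7* was lost without TRIM24C52/55A replicate 1, that of *Acnat2* without WT replicate 1 or 3, and both with no filter on low values. Of 8 genes of coenzyme A synthesis and pantothenate uptake, 2 fell, *Pank1* (log2 fold change -0.37) and *Coasy* (-0.50), with a list median of -0.29.

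Genes that bind, shuttle and import acyl-CoA had 8 of 15 called lower and a median of -0.41. *Abcd2*, a peroxisomal importer of very long acyl-CoA, fell from 8.62 ± 1.67 to 2.81 ± 0.770 FPKM (SD, n = 3 each, log2 fold change -1.34, SE 0.17, adjusted p = 0.00489 from limma). *Crat*, which moves short acyl groups from coenzyme A to carnitine, fell by 0.98 on the log2 scale. Carriers of the liver were lower too, *Slc25a20*, the carnitine-acylcarnitine carrier, by a log2 fold change of -0.54 and *Fabp1*, the fatty acid-binding protein of liver, by -0.57.

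Peroxisomal β-oxidation, which shares its compartment with ACOT3, ACOT4 and ACOT8, had 7 of 15 genes called lower and a median of -0.23. The thiolase gene *Acaa1b* fell from 1306 ± 131.5 to 584.2 ± 27.4 FPKM (SD, n = 3 each, log2 fold change -1.16, SE 0.09, adjusted p = 0.000725 from limma). *Acaa1a*, *Ech1* and *Decr2* had log2 fold changes of -0.57, -0.54 and -0.43.

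In mitochondrial β-oxidation 6 of 16 genes were called lower, 16 of 16 had a log2 fold change below 0, and the median was -0.31. This count depended on scaling, being 13 with TPM and 3 with median-of-ratios or quantile scaling. The share of all genes tested that were called lower was then 11.1%, 3.36% and 3.09%, in that order. *Hadh*, a 3-hydroxyacyl-CoA dehydrogenase, fell by 0.70 on the log2 scale, *Eci1* by 0.59, *Acadl* by 0.54, *Acadm* by 0.49 and *Decr1* by 0.38.

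Among 16 other genes known as targets of PPARα, 9 were called lower and the median was -0.87, the lowest of the 8 lists. *Cyp4a14* and *Cyp4a10*, ω-hydroxylases of fatty acids, had log2 fold changes of -2.22 (SE 0.22, adjusted p = 0.00174 from limma) and -1.23 (SE 0.27, adjusted p = 0.0316 from limma). *Vnn1*, which releases pantothenate, had 44.8 to 65.1 FPKM in WT and 12.9 to 15.9 FPKM in TRIM24C52/55A livers (log2 fold change -1.84, SE 0.14, adjusted p = 0.000494 from limma). *Fgf21*, a hormone of liver, fell by 1.39 and *Cd36*, a fatty acid transporter, by 1.64 on the log2 scale.

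Of the 8 receptors and partner factors, 1 was called. *Pparg*, the receptor with a role in fat storage, had 9.42, 5.55 and 8.39 FPKM in WT and 1.90, 2.27 and 2.71 FPKM in TRIM24C52/55A livers (log2 fold change -1.40, SE 0.18, adjusted p = 0.00491 from limma). *Ppara*, the receptor after which the target list is named, had 28.0, 34.8 and 27.1 FPKM in WT and 33.4, 19.8 and 21.2 FPKM in TRIM24C52/55A livers. Those groups overlapped (log2 fold change -0.29, SE 0.19, adjusted p = 0.407 from limma). *Ppard* had a log2 fold change of 0.59 (SE 0.31) with the highest value, 13.1 FPKM, in TRIM24C52/55A replicate 2. The receptor partner genes *Rxra* (-0.12) and *Rxrb* (-0.06), the coactivator genes *Ppargc1a* (-0.11) and *Ppargc1b* (-0.06), and *Hnf4a* (0.04), a hepatocyte factor, were not called either.

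**Figure D4:**
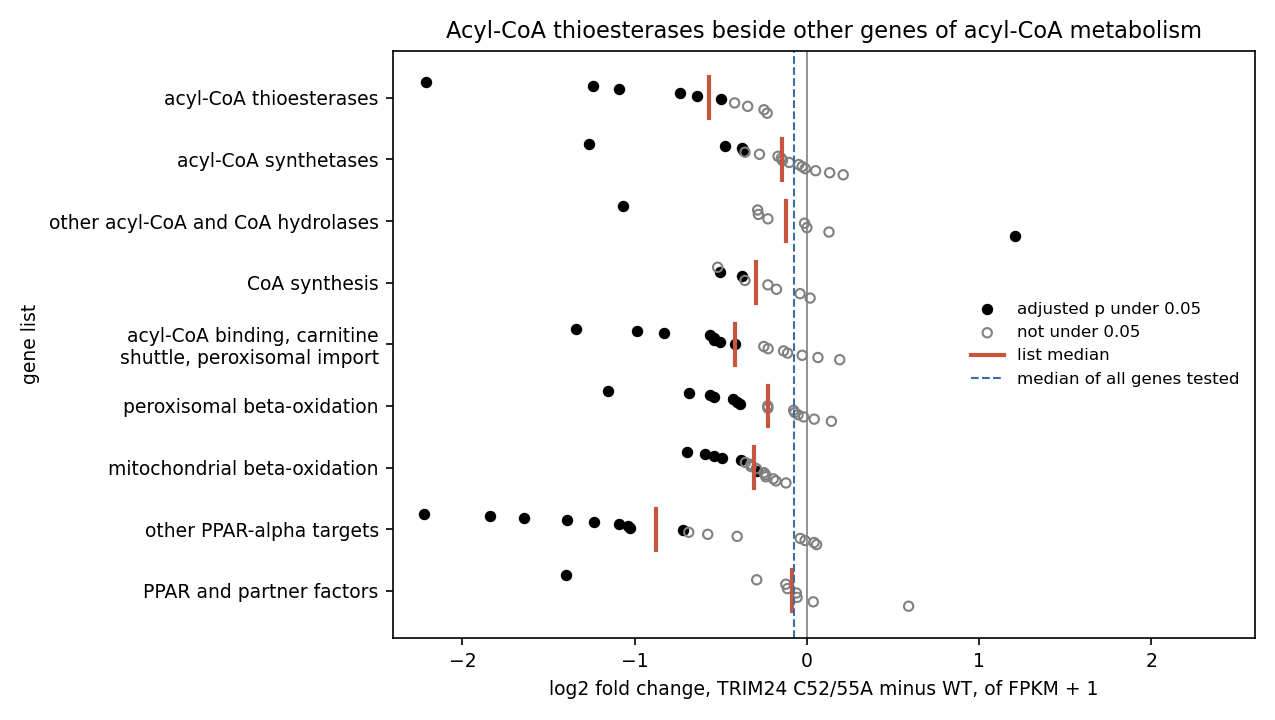
Log2 fold change (TRIM24C52/55A minus WT, of FPKM + 1) of each tested gene in the thioesterase family and 8 lists of related genes, 1 point per gene, black where the adjusted p-value from limma is under 0.05 and open where it is not, with a red bar at the median of each list and a dashed line at that of all genes tested. The medians run from -0.87 for other PPARα targets to -0.09 for the receptors and partner factors, that of the thioesterases is -0.57, and the black point at 1.21 is *Nudt7*.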

How the data were processed

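Per the labels, total RNA from liver was sequenced on libraries of 3 WT and 3 TRIM24C52/55A mice, grouped by genotype. The authors deposited 1 table per library of FPKM per gene, already scaled to transcript length and mapped fragments. The submitters' processing notes name bcl2fastq, Salmon 0.14.0, DESeq2 1.30.0 and GRCm38. What each was used for, and the tool that gave the FPKM, are not given in the sources used here. FPKM keep no total count, so read depth is not known. A gene that a library's table leaves out was taken as 0. No 2 libraries held identical values.

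Here, log2(FPKM + 1) of genes whose mean FPKM reached 0.5 was fitted in R 4.3.3 by limma 3.58.1, with genotype as the factor and the trended eBayes moderation, and p-values were adjusted by Benjamini and Hochberg over 12225 genes. The fit was also run on simulated data with known changes and independent normal error, which share the assumptions of the fit. Gene and transcript coordinates came from GENCODE M21, which holds 21454 of the 21528 genes. Promoter windows came from RefSeq, and protein sequences were not used here. Tables, sequences and plots were handled with pandas 2.3.3, numpy 2.4.6, Biopython 1.88 and matplotlib 3.10.9 in Python 3.11.15.

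The 10 genes and the gene lists were chosen with earlier results of these data known. Named were all 10 members and every other *Acot* symbol, from each list at most 5 genes of largest change among those called without overlap of the groups, all receptors and partner factors, the 3 genes most like each of *Acot1* to *Acot4*, *Trim24*, and markers where a library stood apart. Some genes that this rule names are not reported here. *Ssbp2*, *Apoa1*, *Ttr*, *Lrat* and *Reln* were named after their values were seen. The hepatocyte markers *Alb* and *Tf* were not analysed here. The alternatives were a pseudocount of 0.1, a minimum mean of 1 FPKM or none, TPM, median-of-ratios and quantile scaling, no trend, the replicate number as a block, and each library left out.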

Additional observations from a re-analysis of the deposited data

How the results depend on the processing

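All 10 thioesterase genes had a log2 fold change below 0 in each of 14 alternative settings, and their median lay between -0.64 and -0.44, while the median of all genes tested was -0.14 with TPM and 0.01 after quantile normalization. *Acot2* and *Acot3* were called in 14 of 14 settings, *Acot4* in 12, *Acot13* in 10, *Acot11* in 9 and *Acot8* in 6, and *Acot1*, *Acot7*, *Acot9* and *Acot12* in none of them. The members were chosen for their difference in these same libraries, so nothing beyond the effect of the settings is read from these counts. The ratio of the summed *Acot1* to *Acot4* FPKM was 0.452 to 0.585. With no filter on low values 347 genes were called, 2 of them members, with 2 synthetases, 0 other hydrolases, 1 gene of coenzyme A synthesis and 3 each of acyl-CoA binding and transport, peroxisomal and mitochondrial β-oxidation called lower. More genes were then adjusted for (21528). With TPM 1555 genes were called, with 2 other hydrolases, 4 of coenzyme A synthesis and 13 of mitochondrial β-oxidation lower. Median-of-ratios and quantile scaling each gave 1 synthetase, 1 of coenzyme A synthesis and 3 of mitochondrial β-oxidation. Without a trend 1 of coenzyme A synthesis, 4 of peroxisomal and 3 of mitochondrial β-oxidation were called lower. Of all genes tested, 4.83% were then called lower. That share was 1.17% with no filter, 11.1% with TPM, 3.36% with median-of-ratios and 3.09% with quantile scaling. It was 3.45% with the replicate block and 1.65% to 8.45% with 1 library left out. With 1 library left out, 296 to 1272 genes were called, 2 to 6 of them members, with 1 to 3 synthetases, 0 to 1 other hydrolases, 0 to 3 of coenzyme A synthesis, 3 to 8 of acyl-CoA binding and transport, 3 to 6 of peroxisomal and 2 to 5 of mitochondrial β-oxidation lower. The fits with fewer libraries have less error information. The cause of the other shifts was not tested. Counts for PPARα targets (7 to 11) and for receptors and partner factors (1) stayed within 1.5 times throughout.

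With the replicate block 578 genes were called, 5 of them members (without *Acot8*), with 1 synthetase, 1 gene of coenzyme A synthesis and 4 of peroxisomal β-oxidation lower. Over all genes tested, same-numbered libraries did not deviate together (correlations -0.12, -0.10 and 0.0027). Whether the numbers pair the mice is not known from this, and the block was not used in the main fit. Without TRIM24C52/55A replicate 2 the members called were 6. With 3 livers a genotype and FPKM in place of counts, the depth behind a single low value such as those of *Acot9*, *Acot11* or *Acot5* is not known, and the exact level of close copies is limited by shared sequence.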
